A study of Arabidopsis thaliana with 8 samples.

Results

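The transcripts of the *Arabidopsis thaliana* mitochondrial genome were taken as all gene identifiers that begin with ATMG and that had at least 10 counts summed over the 8 libraries of the study. Of the 37336 identifiers in the count tables, 152 begin with ATMG, 47 of these had a count in any library, and 22 met the rule. The other 25 with a count had at most 8 counts summed (ATMG00665), and the lowest identifier inside the rule had 10 (ATMG09740). The study compared whole seedlings of *ubp5*, a CRISPR-Cas9 deletion line of the gene for the ubiquitin protease UBP5 in the Col-0 background, with seedlings of Col-0, the wild type. Both were collected 12 days after germination, with 4 biological replicates each, and the mutant is a single deletion line. The assay was a 3′ RNA-seq primed with oligo(dT), in which each count is a distinct molecular tag on the sense strand of a gene. Library totals lay between 1440510 and 2595285 counts in *ubp5* and between 2572842 and 2997743 counts in Col-0.

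Plant mitochondria keep a small genome of their own, which encodes some subunits of the respiratory chain complexes and of the ATP synthase, factors of cytochrome c maturation, and ribosomal proteins, ribosomal RNAs and transfer RNAs. The remaining subunits are made from nuclear genes and imported. In plant mitochondria a poly(A) tail usually marks an RNA for breakdown, so an assay primed on poly(A) samples the tailed or A-rich fraction of these RNAs and not their whole amount. The levels below are therefore levels of what oligo(dT) captured. The share of each RNA that carried a tail was not measured.

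*UBP5* (AT2G40930) was read as a check of the labels. It had 14, 13, 6 and 16 counts in the *ubp5* libraries, against 47, 57, 32 and 51 counts in the Col-0 libraries. The groups did not overlap, and the log2 fold change was -1.53 ± 0.25 (SE; edgeR quasi-likelihood test, adjusted p = 0.00236).

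Only reads with a single mapping position were counted, and much of the mitochondrial genome has a second copy in the nucleus. In the RefSeq assembly TAIR10.1, 70.2% of all 55-base windows of the 367808-base mitochondrial genome also occurred in a nuclear chromosome. A stretch of 270728 bases, chr2:3239038-3509765, held nearly all of these. Windows of 55 bases match the length of the sequenced read, and 29.3% of them were found once in the whole reference. Of the 33 protein-coding mitochondrial genes that RefSeq lists, 16 had no unique window and 5 (*atp4*, *ccmB*, *cox1*, *nad4L* and *nad9*) had only unique windows. Of the 3 ribosomal RNA genes, *rrn26* and *rrn5* had only unique windows and *rrn18* had 99.9% of its windows unique, while 21 of 22 transfer RNA genes had no unique window. The study named TAIR10 as its genome, and its mitochondrial sequence was not compared with the one used here.

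**Figure D1:**
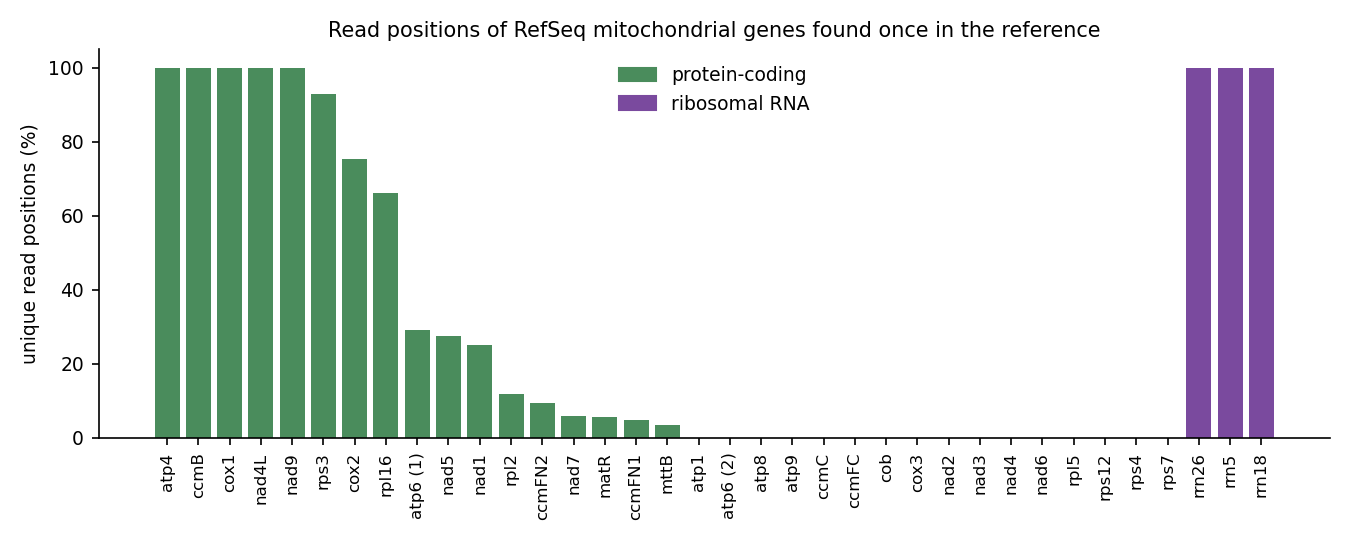
Percent of 55-base windows of each RefSeq mitochondrial gene (x axis; green, protein-coding; purple, ribosomal RNA) that occur once in the TAIR10.1 reference (y axis). The 16 genes without a bar had no unique window, and the 3 ribosomal RNA genes are at 99.9% or 100%.

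Stretches of 3 coding sequences show the range. They are given as DNA of the coding strand, 5′ to 3′, from RefSeq TAIR10.1. The gene *cob* encodes apocytochrome b of complex III, and its whole coding sequence was identical in the chromosome 2 copy. The gene *ccmFN1* encodes a factor of cytochrome c maturation and differed from its copy by 1 base, C54T, counted from 1 at the start codon with the mitochondrial base first; the capital marks that base. The gene *cox1*, for subunit 1 of cytochrome c oxidase, shared no window with any other place.
cob, mitochondrial genome, positions 182829 to 182858, minus strand: atgactataaggaaccaacgattctctctt
cob copy, chr2:3450863-3450892, plus strand: atgactataaggaaccaacgattctctctt
ccmFN1, mitochondrial genome, positions 316051 to 316080, plus strand: atttccgggtcttttCgttgcattcactta
ccmFN1 copy, chr2:3297928-3297957, plus strand: atttccgggtcttttTgttgcattcactta
cox1, mitochondrial genome, positions 116316 to 116345, minus strand: atgaaaaatctggttcgatggctgttctcc
A read with the genomic sequence of the start of *cob* would match both places. A read with the mitochondrial genomic sequence across position 54 of *ccmFN1* would match only the mitochondrial genome. Reads come from RNA, and bases that differ between RNA and genome were not examined.

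The counts were set beside a different division, by whether a RefSeq note names the identifier. The share of unique windows was not computed for any ATMG identifier. RefSeq notes on chromosome 2 genes name 53 ATMG identifiers, most of them as a protein match of the gene. Among the 53 are ATMG00220 (apocytochrome b), ATMG00730 (cytochrome c oxidase subunit 3) and ATMG01190 (ATP synthase subunit 1). These 53 had 14 counts in all over the 8 libraries, 47 of them were at 0 in every library, and 0 met the rule of 10 counts. Of the other 99 identifiers, 58 were also at 0 in every library. These 99 had 147186 counts, of which 143159 were on ATMG00020, and all 22 that met the rule were among them. A count of 0 allows up to 3 counts, and for sequences with a second copy it does not show that the transcript is missing. RefSeq lists the mitochondrial genes under other locus tags, so 0 of the 152 ATMG identifiers matched its gene table and the 22 are given by identifier, without name, role or position.

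The 22 identifiers took 0.945% ± 0.148 of all counts in *ubp5* and 0.623% ± 0.277 in Col-0 (SD, n = 4 each). The shares in the 4 *ubp5* libraries were 1.09%, 0.981%, 0.978% and 0.735%, against 0.423%, 0.517%, 0.522% and 1.03% in the 4 Col-0 libraries. The Col-0 value of replicate 4 lay inside the range of *ubp5*, so the groups overlapped, while the other 3 Col-0 libraries lay below every *ubp5* library. The exact binomial 95% interval ran from 1.07% to 1.10% in *ubp5* replicate 1 and from 1.02% to 1.04% in Col-0 replicate 4, and covers counting error only. The log2 ratio of the mean shares was 0.60, and it was 0.96 without Col-0 replicate 4. These shares are a description and were not tested. In whole seedlings, fewer cells of a type and less RNA per cell cannot be told apart.

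A single identifier, ATMG00020, held 97.3% of the counts of the 22. It took between 96.7% and 97.5% of them in the *ubp5* libraries and between 96.3% and 98.1% in the Col-0 libraries. The summed share is therefore mostly a statement about ATMG00020. The other 21 identifiers together took 0.0290%, 0.0246%, 0.0325% and 0.0217% of the counts in *ubp5*, against 0.0155%, 0.0127%, 0.0179% and 0.0194% in Col-0. Here every *ubp5* library lay above every Col-0 library, with means of 0.0269% ± 0.0048 in *ubp5* and 0.0164% ± 0.0029 in Col-0 (SD, n = 4 each).

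The chloroplast genome, measured with the same primer, also had a higher mean share in *ubp5*, by a smaller ratio. Its 133 identifiers took 4.77%, 4.03%, 4.74% and 4.13% of the counts in *ubp5*, against 2.45%, 3.03%, 3.67% and 4.26% in Col-0. The groups overlapped, again through Col-0 replicate 4, and the log2 ratio of the mean shares was 0.40. Mitochondrial counts came to between 17.8% and 24.4% of the chloroplast counts in *ubp5*, and to 17.3%, 17.1%, 14.2% and 24.2% in the Col-0 libraries. Of the 73 chloroplast genes tested, 68 had a positive log2 fold change, with a median of 0.47, where 48.4% of all tested genes were positive and their median was -0.01. Of these 73, 8 passed an adjusted p under 0.05 as higher in *ubp5* (edgeR), against 4.59% of all tested genes.

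**Figure D2:**
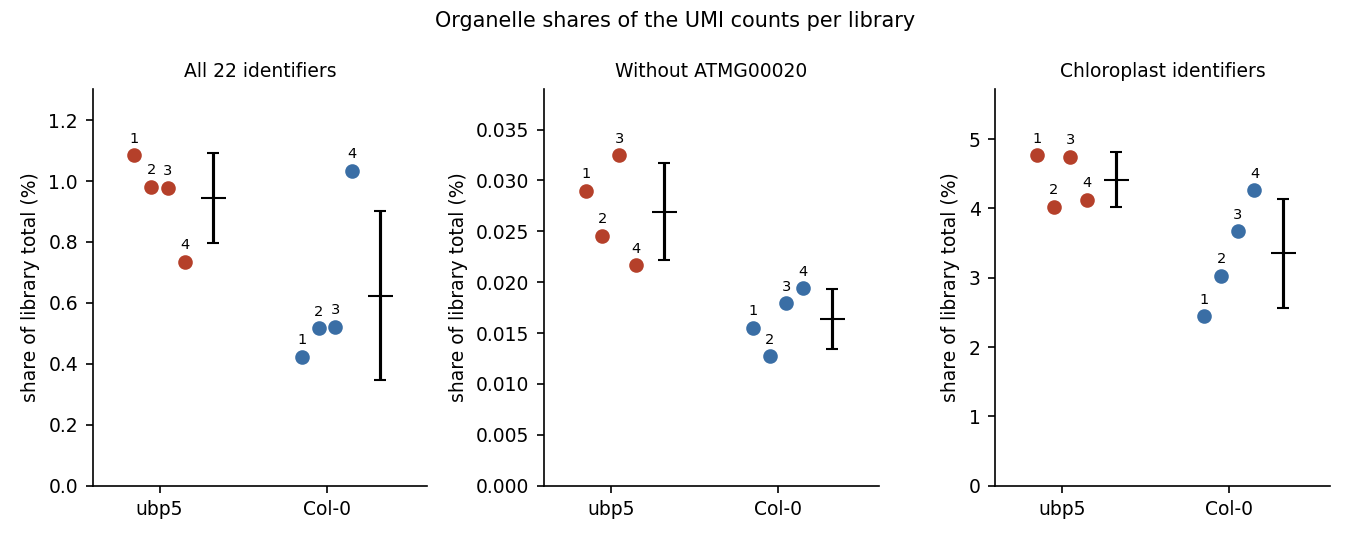
Share of each library's total counts (y axis, percent) for the 22 mitochondrial identifiers, for the 21 without ATMG00020 and for all chloroplast identifiers, in *ubp5* and Col-0. Points are libraries with their replicate number, and bars give the mean and SD (n = 4). Col-0 replicate 4, at 1.03%, lies within the *ubp5* range in the first panel and below it in the second.

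Of the 22 identifiers, 8 had enough counts for the test across all 15649 genes that passed edgeR's expression filter. Following the thresholds of the study, a call needed an adjusted p below 0.05 together with a change of 1 or more on the log2 scale in either direction. By this rule 4 of the 8 were called higher in *ubp5*, where 1.91% of all tested genes were called higher. None was called lower: 0 of 8 were lower at an unadjusted p under 0.05 and 0 by DESeq2, where edgeR called 2.93% of all tested genes lower. All 8 had a positive log2 fold change, with a median of 0.94. The filter required a minimum level in at least 4 libraries, whatever their genotype. ATMG00690, ATMG00080 and ATMG01380 missed that level in some Col-0 libraries (lowest counts 7, 5 and 8) and were tested through their *ubp5* values. The numbers called, positive or without overlap among the 8 were thus not independent of a high level in *ubp5*. The 4 called identifiers were ATMG00660, ATMG01360, ATMG00690 and ATMG00080, and DESeq2 called the same 4, where it called 1.66% of its tested genes higher.

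ATMG00660 had 26.5, 21.0, 24.7 and 14.9 CPM (counts scaled to a common library size adjusted by TMM) in *ubp5*, against 9.11, 7.14, 10.9 and 12.7 CPM in Col-0. The groups did not overlap. Its log2 fold change was 1.10 ± 0.23 (SE, edgeR adjusted p = 0.00868), and it was 0.97 without Col-0 replicate 2 and 0.99 without *ubp5* replicate 1, below the fold threshold.

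ATMG01360 had 14.3, 21.0, 23.2 and 35.8 CPM in *ubp5*, against 11.0, 9.53, 10.2 and 11.7 CPM in Col-0. The Col-0 libraries were close together, and all 4 *ubp5* libraries were above them with a wider spread. The log2 fold change was 1.15 ± 0.25 (SE, edgeR adjusted p = 0.0111), and it was 0.87 without *ubp5* replicate 4, the highest library.

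ATMG00690 had 10.2, 6.11, 10.6 and 10.4 CPM in *ubp5*, against 2.66, 3.97, 3.39 and 4.68 CPM in Col-0. The groups did not overlap, and the lowest *ubp5* library, replicate 2, stood apart from the other 3. The log2 fold change was 1.30 ± 0.28 (SE, edgeR adjusted p = 0.0117), and the call held whichever of the 8 libraries was omitted. Its counts were small, between 15 and 23 per library in *ubp5* and between 7 and 14 in Col-0.

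ATMG00080 had the largest fitted change of the 8 and the widest spread. It had 16.3, 17.2, 67.6 and 10.4 CPM in *ubp5*, against 1.90, 5.16, 3.39 and 11.0 CPM in Col-0. One *ubp5* library, replicate 3, was far above the others, and the groups overlapped because Col-0 replicate 4 exceeded *ubp5* replicate 4. The log2 fold change was 2.23 ± 0.61 (SE, edgeR adjusted p = 0.0338). Without *ubp5* replicate 3 it was 1.42 with an adjusted p of 0.0787, and the call was also lost without Col-0 replicate 2 (adjusted p = 0.0684) or Col-0 replicate 3 (adjusted p = 0.0735).

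The remaining 4 tested identifiers were not called. ATMG00020 had 10806, 9480, 9591 and 7093 CPM in *ubp5*, against 4078, 5146, 5183 and 10164 CPM in Col-0. Its log2 fold change was 0.59 ± 0.25 (SE, edgeR adjusted p = 0.153). Without Col-0 replicate 4, the library whose level lay among those of *ubp5*, the log2 fold change was 0.94 with an adjusted p of 0.00425, still below the fold threshold.

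ATMG00090 had 63.8, 31.3, 43.7 and 26.2 CPM in *ubp5*, against 15.6, 21.8, 24.8 and 32.1 CPM in Col-0, and its log2 fold change was 0.78 ± 0.27 (SE, edgeR adjusted p = 0.0893). ATMG01380 had 9.18, 11.1, 12.0 and 8.15 CPM in *ubp5*, against 3.04, 8.33, 8.28 and 7.02 CPM in Col-0, with a log2 fold change of 0.58 ± 0.29 (SE, edgeR adjusted p = 0.234). ATMG01390 had 127, 104, 117 and 88.2 CPM in *ubp5*, against 96.4, 57.9, 98.9 and 93.0 CPM in Col-0, and the smallest log2 fold change of the 8, 0.32 ± 0.17 (SE, edgeR adjusted p = 0.252). In all 3 the groups overlapped. These values do not show that the levels were equal.

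**Figure D3:**
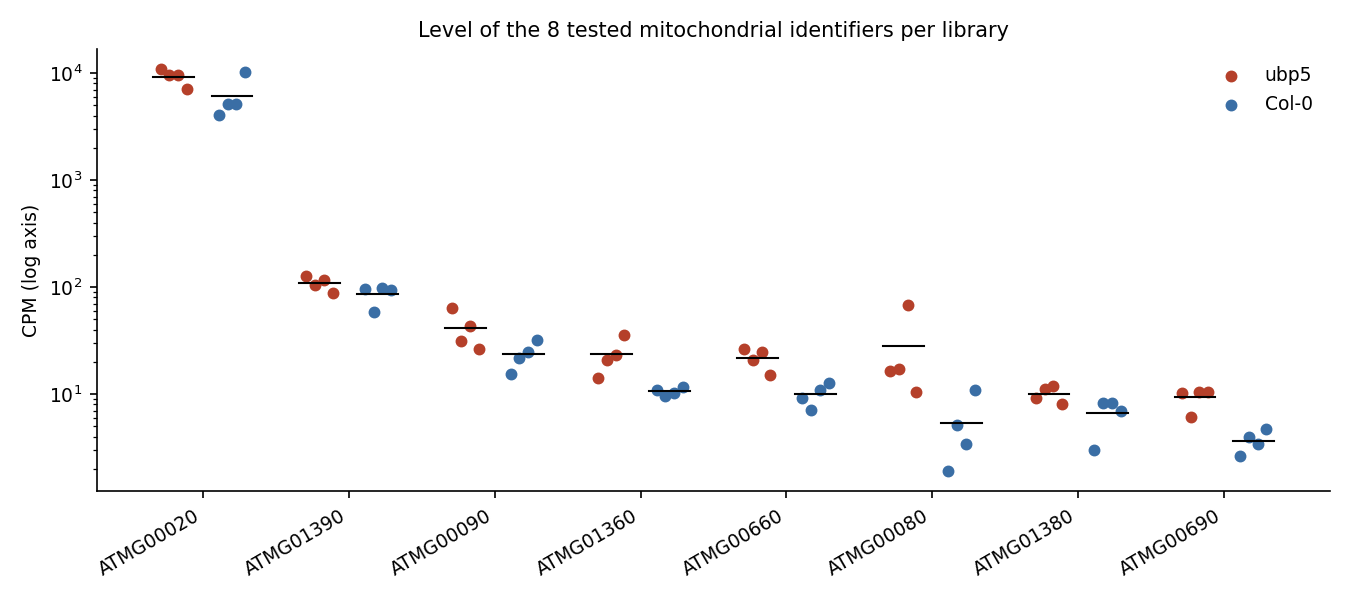
Level in CPM (y axis, log scale) of the 8 tested mitochondrial identifiers in each library of *ubp5* and Col-0, with the group mean as a line (n = 4 each). In ATMG00660, ATMG01360 and ATMG00690 all *ubp5* libraries lie above all Col-0 libraries, and ATMG00080 has a single *ubp5* library at 67.6 CPM.

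The groups did not overlap for 3 of the 8 tested identifiers, all higher in *ubp5*, where 7.87% of all tested genes did not overlap in that direction, and 0 were lower without overlap, where 9.37% of all tested genes were. ATMG00690, 1 of the 3, passed the expression filter through its *ubp5* values. Within Col-0, replicate 4 had the highest CPM for 6 of the 8. Within *ubp5*, the highest library was replicate 1 for 4 identifiers, replicate 3 for 3 and replicate 4 for 1. The identifiers thus did not share a leading library in *ubp5*, while they largely did in Col-0.

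**Figure D4:**
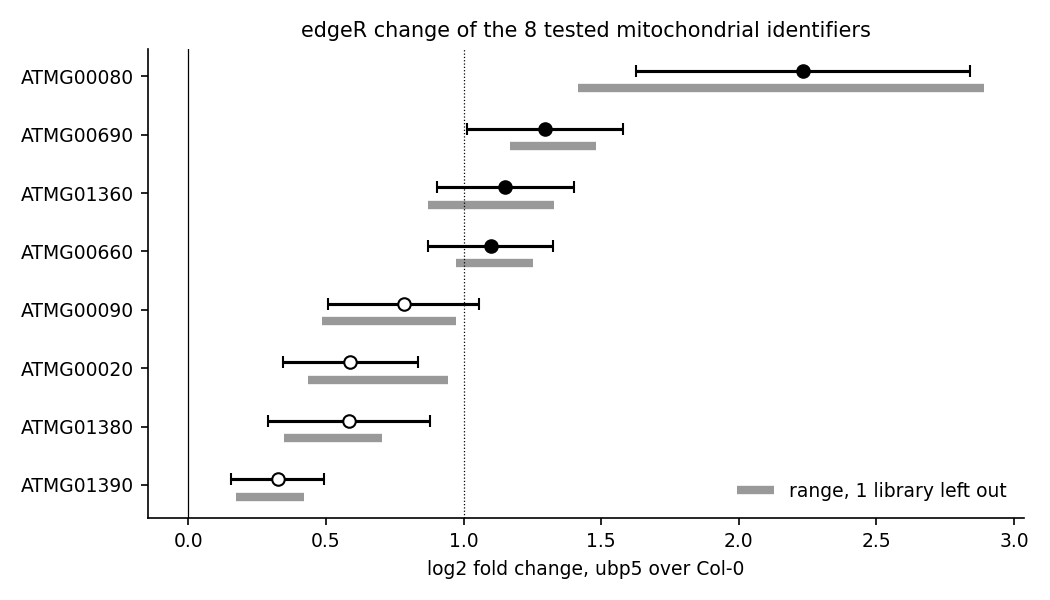
Log2 fold change of *ubp5* over Col-0 (x axis) for the 8 tested mitochondrial identifiers, with SE from edgeR (filled, called; open, not called). Grey bars give the range with each of the 8 libraries left out in turn, and the dotted line is the fold threshold of 1. The bar of ATMG00080 spans 1.42 to 2.89, and those of ATMG01360 and ATMG00660 reach below 1.

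The 14 identifiers that were not tested had between 10 and 58 counts summed, and at most 14 in any library, so single values carry a large counting error. ATMG00513 had 12, 14, 7 and 7 counts in *ubp5*, against 2, 2, 7 and 7 counts in Col-0. After scaling by library size its groups did not overlap, with 4.89 ± 1.25 CPM in *ubp5* and 1.63 ± 0.995 CPM in Col-0 (SD, n = 4 each). When no filter was applied, ATMG00513 was tested and called higher, with a log2 fold change of 1.52 and an edgeR adjusted p of 0.0408, while DESeq2 gave it an adjusted p of 0.0780. It also passed the filter in some fits with 1 library left out. It was called without Col-0 replicate 3, Col-0 replicate 4 or *ubp5* replicate 4 (edgeR adjusted p = 0.0295, 0.0427 and 0.0417). It was not called without Col-0 replicate 1 or Col-0 replicate 2 (edgeR adjusted p = 0.0587 and 0.0833).

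ATMG01170 had 6, 12, 7 and 7 counts in *ubp5*, against 6, 5, 8 and 5 counts in Col-0, so its counts overlapped. Its CPM did not, with 3.06 to 4.93 in *ubp5* and 1.67 to 3.01 in Col-0, a separation that came only from scaling by library size. How often genes too low for the test separate in this way was not examined, so nothing is read from ATMG00513 and ATMG01170 doing so. ATMG01370 had 1, 8, 5 and 3 counts in *ubp5*, against 2, 7, 10 and 7 in Col-0. ATMG00070 had 1, 10, 7 and 2 counts in *ubp5*, against 2, 5, 8 and 7 in Col-0. In the last 2 the values within a genotype ranged more widely than the genotypes differed.

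ATMG00640 had 5, 6, 3 and 8 counts in *ubp5*, against 7, 1, 5 and 5 in Col-0. ATMG00060 had 8, 7, 0 and 4 counts in *ubp5*, against 5, 2, 4 and 7 in Col-0, and ATMG00670 had 4, 7, 3 and 4 counts in *ubp5*, against 6, 6, 1 and 3 in Col-0. Their groups overlapped. The other 7 (ATMG00040, ATMG00516, ATMG00160, ATMG00650, ATMG01120, ATMG00030 and ATMG09740) had between 10 and 31 counts summed, and their groups overlapped as well. Mean CPM was higher in *ubp5* for 11 of the 14 and lower for 3, and the 14 together had 28.6 ± 5.01 CPM in *ubp5* and 19.5 ± 4.47 CPM in Col-0 (SD, n = 4 each).

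The nuclear genes whose RefSeq notes name ATMG identifiers, here called matched genes, gave almost no counts. The 55 of them had 63 counts in all, 47 were at 0 in every library and 0 had enough counts for the test. The wider range of 150 identifiers from AT2G07660 to AT2G07840, which also holds other nuclear genes, had 400 counts. The 1 that was tested, *MCM5* (AT2G07690), encodes a subunit of the replicative helicase and is not among the matched genes. It had 28, 37, 15 and 23 counts in *ubp5*, against 18, 23, 16 and 26 in Col-0, with a log2 fold change of 0.70 ± 0.22 (SE, edgeR adjusted p = 0.0636; unadjusted p under 0.05 for 1 of 1, and 0 called by DESeq2). The next were *ABCC13* (AT2G07680), of the ABC transporter family, with 60 counts summed, AT2G07698 with 40, AT2G07774 with 30 and AT2G07711 with 22. Of these 5 genes only AT2G07698, annotated as an alpha subunit of the ATP synthase, is a matched gene. It had 6, 9, 6 and 9 counts in *ubp5*, against 1, 0, 8 and 1 in Col-0, and was too low for the test.

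Nuclear genes for respiratory chain subunits and for mitochondrial transcription and RNA tails were tested in the same fit. Of 37 listed nuclear genes of complexes I to V and cytochrome c, all were tested and 35 had a positive log2 fold change, with a median of 0.20 against -0.01 over all tested genes. None of the 42 tested genes of all nuclear lists was called with the fold threshold by edgeR or DESeq2. At an unadjusted p under 0.05 (edgeR), 11 of the 42 were higher and 1 lower. The share of all tested genes at that unadjusted threshold is not given here, so no excess is read from these counts. At an adjusted p under 0.05 alone 4 were higher and 0 lower in edgeR, where 4.59% and 6.34% of all tested genes were higher and lower. DESeq2 gave 4 and 0.

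All 4 belonged to complex V, the ATP synthase, of which 9 genes were tested. *MGP1* (AT2G21870), a subunit of this complex, had 229, 275, 213 and 248 CPM in *ubp5*, against 177, 175, 179 and 182 CPM in Col-0, with a log2 fold change of 0.44 ± 0.10 (SE, edgeR adjusted p = 0.0178). *ATPQ* (AT3G52300), the d subunit, had 323, 342, 292 and 305 CPM in *ubp5*, against 240, 253, 219 and 232 CPM in Col-0, with a log2 fold change of 0.42 ± 0.10 (SE, edgeR adjusted p = 0.0173). In both, every *ubp5* library was above every Col-0 library.

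AT1G51650, the epsilon chain, averaged 285 ± 34.2 CPM in *ubp5* and 216 ± 19.4 CPM in Col-0 (SD, n = 4 each), with a log2 fold change of 0.40 (edgeR adjusted p = 0.0431). AT5G08690, of the alpha/beta family of ATP synthase subunits, averaged 273 ± 8.12 CPM in *ubp5* and 208 ± 16.3 CPM in Col-0 (SD, n = 4 each), with a log2 fold change of 0.39 (edgeR adjusted p = 0.0222). AT5G08690 has the close relatives AT5G08670 and AT5G08680, whose log2 fold changes were 0.01 and 0.24. Reads that matched more than 1 of the 3 would not have been counted, and their number was not examined. All 4 passed on the adjusted p alone, and each was above 0.05 when certain libraries were omitted. With 1 library omitted, the edgeR adjusted p reached 0.0506 for *ATPQ* (without *ubp5* replicate 1), 0.0527 for *MGP1* (without *ubp5* replicate 4; 0.0509 without *ubp5* replicate 2), 0.0598 for AT5G08690 (without *ubp5* replicate 4; also above 0.05 without *ubp5* replicates 1 or 2 or Col-0 replicate 3) and 0.115 for AT1G51650 (without *ubp5* replicate 2; also above 0.05 without *ubp5* replicates 1 or 3 or Col-0 replicates 2 or 3). Whether complex V changed more than the other complexes was not tested.

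At an adjusted p under 0.05, 4.59% of all tested genes were higher and 6.34% lower in edgeR. In complexes I to IV, 0 of 28 tested genes passed it in either direction, in edgeR or DESeq2. At an unadjusted p under 0.05, a looser threshold, 6 of the 28 were higher and 1 lower (edgeR). The share of all tested genes at this looser threshold is not given here, so no excess is read from these counts. The largest changes were *GAMMA CA1* (0.35, adjusted p = 0.196) in complex I, *SDH2-2* (0.25, adjusted p = 0.233), the iron-sulfur subunit of complex II, *CYTC-2* (-0.56, adjusted p = 0.0728), a cytochrome c, and AT5G61310 (0.50, adjusted p = 0.0735), subunit Vc of cytochrome c oxidase. *CYTC-2* had 13.8, 18.3, 15.5 and 22.2 CPM in *ubp5*, against 33.0, 21.8, 24.8 and 24.8 CPM in Col-0, and was 1 of the 2 respiratory chain genes with a negative value.

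Of the 6 listed nuclear genes of mitochondrial transcription and RNA tails, 5 were tested, with a median log2 fold change of 0.04. At an adjusted p under 0.05, 0 passed in edgeR or DESeq2, where edgeR had 4.59% of all tested genes higher and 6.34% lower. *MGP3* (AT1G68990), the mitochondrial RNA polymerase, had 15.3, 16.0, 17.6 and 15.8 CPM in *ubp5*, against 14.8, 13.5, 13.5 and 11.7 CPM in Col-0. Its groups did not overlap, and its log2 fold change was 0.27 ± 0.16 (SE, edgeR adjusted p = 0.324).

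**Figure D5:**
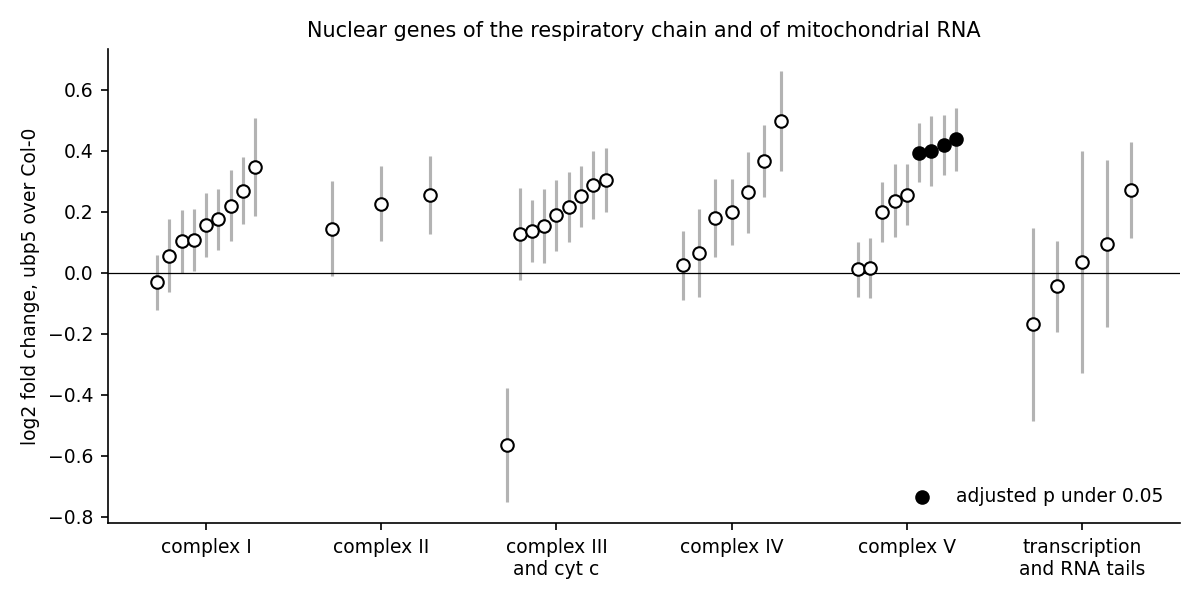
Log2 fold change of *ubp5* over Col-0 (y axis) with SE for nuclear genes of each respiratory complex and of mitochondrial transcription and RNA tails (x axis), from edgeR. Filled points passed an adjusted p under 0.05; all 4 are in complex V, between 0.39 and 0.44.

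Markers of green tissue had a lower summed level in *ubp5*, while the mean organelle shares were higher. The 6 markers summed to between 23727 and 25947 CPM in *ubp5* and between 30192 and 38461 CPM in Col-0. Of the 6, 4 passed an adjusted p under 0.05 as lower, where 6.34% of all tested genes did (edgeR). Among the 4 was *LHCB2.1*, a light-harvesting protein, at -1.12 (edgeR adjusted p = 0.00345). Of the 5 root markers 4 were tested and 0 passed, where 4.59% of all tested genes were higher and 6.34% lower. The 5 summed to between 1625 and 2125 CPM in *ubp5* and between 1220 and 1652 CPM in Col-0. That sum was almost all *PYK10*, a root beta-glucosidase, with a log2 fold change of 0.36, while the other 3 tested root markers had negative values (*EXPA7* -0.28, *TIP2;3* -0.76 and *PRP3* -0.38) and the median of the 4 was -0.33. No marker of either list was at 0 in all libraries. The part of tissue make-up in the mitochondrial values was not tested.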

How the data were processed

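Whole-seedling RNA of 4 *ubp5* and 4 Col-0 replicates was primed with barcoded oligo(dT). The authors trimmed the 55-base reads with BRBseqTools 1.6, aligned them to TAIR10 (STAR 2.7.8a, Araport11 genes) allowing 1 mapping position, and deposited sense-strand counts per gene after collapsing molecular identifiers, not normalized. Genotypes and replicate numbers came from the labels.

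Counts were tested with edgeR 4.0.16 (TMM, filterByExpr, quasi-likelihood test) in R 4.3.3, without covariates, with Benjamini-Hochberg adjustment over 15649 genes. CPM used TMM-adjusted library sizes. Standard errors are the fold change over the root of its F statistic. Totals of 1440510 to 2997743 counts set the precision, and intervals are exact binomial (95%). The procedure was tested on simulated data that gave every gene the same dispersion. That setting does not cover identifiers with low counts or a wide spread, such as ATMG00080. Sequences, windows, symbols and notes came from RefSeq TAIR10.1, where 37051 identifiers matched. Mitochondrial gene lists by function were not used, because no source used here pairs ATMG identifiers outside the notes with names.

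Alternatives were DESeq2 1.42.0 and its size factors, other filters, thresholds, library sizes and denominators, the replicate block, and leaving out each library. The members and lists were chosen with earlier results of these data known. Named were members past the adjusted p, the 15 with most counts, those without overlap, and in the nuclear lists those past the adjusted p and the largest change of each list.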

Additional observations from a re-analysis of the deposited data

Results flagged for a closer look

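In 9 of 50 groups of 4 libraries examined, the highest or lowest library lay far from the others. The rule flags about 1 in 20 when groups are independent and normally distributed. These groups were not all independent, since the summed share and the ATMG00020 share are largely the same counts. In Col-0, replicate 4 was far above the rest in the summed share of the 22 mitochondrial identifiers (1.03%, next 0.522%) and in the share of ATMG00020 (1.01%, next 0.504%). In *ubp5*, replicate 3 was far above the rest for ATMG00080 (67.6 CPM, next 17.2), and replicate 2 was far below for ATMG00690 (6.11 CPM, next 10.2). In Col-0, replicate 2 was far below for ATMG01390 (57.9 CPM, next 93.0).

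Among the nuclear genes, AT5G08690 had a low library in *ubp5* (261 CPM, next 277) and in Col-0 (184 CPM, next 214). In *ubp5* the lowest library also stood apart for *SDH2-2* (AT5G40650; 31.7 CPM, next 40.3) and for AT5G61310 (15.5 CPM, next 19.9). In each of these 3 genes the low *ubp5* library was replicate 3, the library with the fewest counts.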

How the results depend on the processing

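The number of mitochondrial identifiers called higher, 4 in the main fit, was 1 at an adjusted p under 0.01. It lay between 2 and 5 with 1 library left out and was lowest without Col-0 replicate 2. These were not always the same identifiers. ATMG00513, outside the 4, was called without Col-0 replicate 3, Col-0 replicate 4 or *ubp5* replicate 4. The number called lower was 0 throughout. ATMG00690 was called in every refit at an adjusted p under 0.05. With the replicate number as a block 3 were called and ATMG00080 was not (log2 fold change 2.12, adjusted p = 0.0572); the adjusted p of AT1G51650 was 0.0881 with the block. Same-numbered libraries did not deviate together over all tested genes (correlations between -0.12 and 0.03). This cannot show whether they were grown or collected together. The number of nuclear genes called higher was 4 with no fold-change threshold and 0 in every other setting run. The log2 ratio of the summed mitochondrial shares was 1.13 without the 3 members with the most counts, 0.72 without ATMG00020 (chosen after seeing the data), and between 0.45 and 0.96 with 1 library left out. The chloroplast ratio lay between 0.27 and 0.54 with 1 library left out. The cause of these shifts was not tested. Leaving out the ribosomal RNA genes was not run, because no source used here says which identifiers they are. Depth limits the 14 untested identifiers most.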
